A study of Homo sapiens with 6 samples.

Results

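The genes described here are those whose RNA carried an N4-acetylcytidine (ac4C) peak in DLD-1, an established human colorectal cancer cell line, set beside the genes that were expressed there without a peak. They were chosen from the 58302 genes of the deposited Input table as the 15125 genes with an Input DLD-1 of at least 1 FPKM (fragments per kilobase of transcript, scaled to the size of the library), and were split by the peak list of the acRIP DLD-1 library. A total of 6311 genes, called hosts, carried at least 1 peak, and 8814 carried none. The series holds 6 libraries from wild-type, untreated SW480 and DLD-1 cells, with 1 library per group: Input, acRIP (fragmented RNA pulled down with an anti-ac4C antibody) and RIP (RNA pulled down with NAT10). No group was replicated, so no test was made, every value describes these libraries, and the intervals given cover counting error over genes or peaks only.

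ac4C is an acetyl group on the base cytidine. The acetyltransferase NAT10 writes it on ribosomal RNA, on transfer RNA with the help of the adaptor THUMPD1, and on messenger RNA (mRNA), where it has been linked to transcript stability and translation. In acRIP-seq a peak is a stretch of RNA with more reads after pull-down than in Input, so it can be called only where RNA is present. The host share of gene types and gene lists was therefore set beside that of genes in the same bins of Input.

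The Input and RIP libraries went opposite ways under the same labels. Which of them carries the wrong label was not tested, and this touches every value that uses Input. ZEB1, a transcription factor of mesenchymal cells, was at 4.34 FPKM in the Input labelled DLD-1, and the Input labelled SW480 had 0.494 FPKM. The order was opposite after RIP, with ZEB1 at 0.108 FPKM under the label DLD-1 and 5.27 FPKM under SW480. KRT20, an intestinal keratin, was at 0.0501 FPKM in Input under the label DLD-1 and at 20.5 FPKM under SW480, whereas after RIP it was at 23.9 FPKM under DLD-1 and listed at 0 under SW480. Among protein-coding genes, 427 were at least 4-fold higher, on the scale of FPKM + 1, in the Input labelled DLD-1. After RIP, 318 of these were at least 4-fold higher under the label SW480 and 0 were under DLD-1. The same 427 genes held 82 hosts of peaks labelled DLD-1 (19.2%) and 132 hosts of peaks labelled SW480 (30.9%). Of 206 genes higher in the Input labelled SW480, 72 were hosts in DLD-1 (35.0%) and 52 in SW480 (25.2%). Both sets were poor in hosts beside the 9594 genes less than 4-fold apart and at 1 FPKM or more in both Inputs. Of those, 59.4% were hosts in DLD-1 and 53.1% in SW480. The overall host share, the Input bins and medians, the gene lists, the peak positions and the motif share were therefore also computed with the other Input, that labelled SW480, over all genes. This changed only the genes admitted and their bins. The peaks, their folds, positions and motif sites stayed as deposited, so it cannot show how another Input would change the peak calls. Of 10 colorectal epithelial markers, 8 were at 1 FPKM or more in the Input of the label DLD-1, with KRT8 at 345 FPKM and EPCAM at 65.0 FPKM, and CDX1 was listed at 0. The 10 markers summed to 922 FPKM there and to 1918 FPKM in the Input labelled SW480. Of the 8, 5 were hosts, beside 53.5% of all protein-coding genes with Input of at least 1. None of the 6 mesenchymal markers was a host in DLD-1, and 4 were hosts in SW480. The 4 immune markers and the 3 endothelial markers were all listed at 0 in the Input labelled DLD-1.

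Some listed motif sites of host peaks lay near a gene start, where the RefSeq promoter table (GRCh38.p14) gives the letters, and 6 are shown as examples of the letters behind a site. They were chosen after their values were seen. MRPL51, NDUFS3, HNRNPA3 and RPS25 come from gene lists rich in hosts, and THBS1 was taken for its strong peaks. CCT5 comes from the list of chaperone genes, with 49 hosts among 75 genes. That share was 65.3%, against 59.3% of protein-coding genes in the same bins of Input. The pattern that the authors list is CNNCNNCNNCNN, read on the RNA strand, and capitals mark its 4 evenly spaced Cs within 9 flanking bases on either side.
MRPL51: tgggcggtgCgcCcaCagCtgcctgggtaa
CCT5: gcgccctttCctCatCatCaaggatcagga
NDUFS3: gtaacatggCggCggCggCggtagccaggc
HNRNPA3: cgactggccCcgCctCttCctctcggtccc
RPS25: acttcctgtCttCcgCctCaggctagaggg
THBS1: ccttgccagCcgCtgCgcCcgagctggcct
The MRPL51 stretch lies at chr12:6493247-6493276 on the minus strand, in a CDS peak with a fold of 127. The CCT5 stretch lies at chr5:10250379-10250408 on the plus strand, in a CDS peak with a fold of 124. That of NDUFS3 lies at chr11:47579087-47579116 on the plus strand, and that of RPS25 at chr11:119018446-119018475 on the minus strand. The HNRNPA3 stretch lies at chr2:177212730-177212759 and the THBS1 stretch at chr15:39581072-39581101, both on the plus strand. All 40 listed sites that were looked up inside a window, away from its edges, matched the pattern. Not every peak and not every window of a gene was searched, so other listed sites inside windows were not checked. The pattern is frequent: 74.9% of the 35116 windows of 300 bases hold it on the sense strand, as do 90.3% of the windows of hosts and 87.9% of the windows of genes without a peak.

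Hosts made up 41.7% of the genes with Input of at least 1 (95% Wilson interval 40.9 to 42.5%). With the Input labelled SW480, 6256 of 14272 genes were hosts (43.8%), and 6068 of these hosts were the same genes. The hosts carried 12794 of the 13964 peaks in the list (91.6%). The threshold at 1 FPKM had no visible step, since 41 of 331 genes just below it (0.9 to 1 FPKM) and 36 of 306 genes just above it (1 to 1.1 FPKM) were hosts, or 12.4% and 11.8%.

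Nearly all hosts coded for protein. Protein-coding genes were 94.5% of the hosts and 58.7% of the genes without a peak, and 5967 of 11144 protein-coding genes were hosts (53.5%, interval 52.6 to 54.5%), against 44.1% of all genes in the same bins of Input. Fewer long non-coding RNA genes were hosts: 33 of 620 lincRNA genes (5.32%, against 29.9% of all genes in the same bins) and 207 of 1649 antisense RNA genes (12.6% against 37.7%) carried a peak. Whether the counting used strand is not given in the sources used here, so reads of an antisense gene and its partner cannot be told apart. Among processed pseudogenes, which share sequence with their parent genes, 30 of 581 were hosts (5.16% against 30.1%). No small RNA gene was a host: 0 of 106 snoRNA genes, 0 of 98 snRNA genes and 0 of 61 miRNA genes, against 51.8%, 47.6% and 53.1% of all genes in the same bins. At the 3 counts that a count of 0 allows, their shares could reach 2.83%, 3.06% and 4.92%. Their median solved lengths were 131, 112 and 81.0 bases, and the shortest host peak measured 114 bases.

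Hosts had more RNA in Input than genes without a peak. The median Input was 8.96 FPKM in hosts (quartiles 4.64 and 17.5) and 3.71 FPKM in genes without a peak (quartiles 1.98 and 7.75). Among protein-coding genes alone the medians were 9.06 and 4.11 FPKM. With the Input labelled SW480 they were 9.55 and 3.73 FPKM over all genes. The host share was 14.9% of 2636 genes at 1 to 2 FPKM, 43.4% at 4 to 8 FPKM and 69.9% of 638 genes at 32 to 64 FPKM. In the highest of the 8 doubling bins it was 55.9% of 204 genes. With the other Input the lowest bin, the bin of 32 to 64 FPKM and the highest bin held 14.6%, 73.2% and 57.3% hosts. In protein-coding genes the share went from 22.1% in the lowest bin to 79.6% at 32 to 64 FPKM and 75.6% in the highest bin, whose interval reached from 67.6 to 82.1%.

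**Figure D1:**
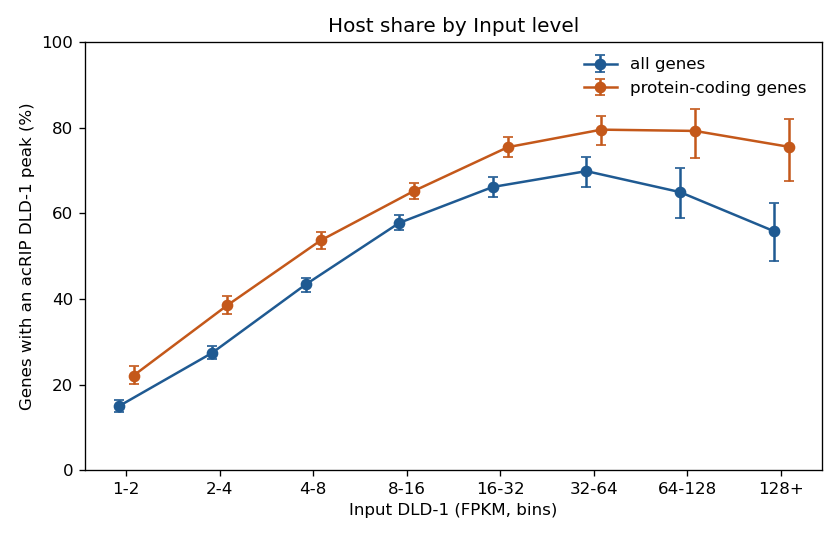
The share of genes with an acRIP DLD-1 peak (y axis, %) is plotted by bin of Input DLD-1 (x axis, FPKM), for all genes and for protein-coding genes, with 95% Wilson intervals as bars. The share is 69.9% and 79.6% at 32 to 64 FPKM, and the highest bin of all genes lies lower, at 55.9%.

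The 10 hosts with the highest Input were led by mitochondrially encoded mRNAs with weak peaks. MT-CO1, a subunit of cytochrome c oxidase, was at 9973 FPKM and had 1 peak with a fold of 5.05. MT-CO2 and MT-ND4 were at 9175 and 7738 FPKM, and their strongest peaks had folds of 4.67 and 2.91. MT-CYB, at 6349 FPKM, had a peak with a fold of 1.37, against a median of 21.2 for the strongest peak of all hosts. Of the 35 mitochondrially encoded genes with Input of at least 1, 12 were hosts (34.3%, against 56.4% of all genes in the same bins). Of the 13 that code for protein, 10 were hosts (76.9%), which lay 1.35 points above protein-coding genes of the same bins. Among those of the 35 without a peak, 20 were mitochondrial transfer RNA genes, with a median solved length of 68.0 bases.

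Abundance alone did not give a peak. The protein-coding genes without a peak that had the highest Input were MT-ND1 at 13078 FPKM, MT-ND6 at 5521 FPKM, and FTL and FTH1, the light and heavy chains of the iron store ferritin, at 2896 and 2361 FPKM. FTL was 365 FPKM and FTH1 934 FPKM in the other Input, so both were abundant under either label. ATF4, the transcription factor of the integrated stress response, was at 379 FPKM with an estimated 10301 solved Input reads and no peak. HMGA1, an architectural chromatin protein, was at 377 FPKM and UBB, a polyubiquitin gene, at 330 FPKM. The ribosomal protein gene RPL32 was at 256 FPKM. Ferritin, polyubiquitin and ribosomal protein genes have pseudogene or family copies that can split reads, and their peak calls are uncertain to that extent.

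Function was described with 41 gene lists, each set beside the share of hosts among all genes in the same bins of Input. On that scale 31 lists lay at least 10 percentage points above and 4 at least 10 points below. Because nearly all hosts code for protein, each list was also set beside protein-coding genes of the same bins, where 19 lists lay at least 10 points above, 6 at least 10 points below and 16 in between. The same 25 lists lay 10 points or more to the same side when transcript length was matched as well. With the other Input, 30 lists lay at least 10 points above all genes of the same bins, and all 41 kept their side. Protein-coding genes of the same Input bins are called like genes from here on.

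Most lists of translation genes held more hosts than like genes. Of 74 mitochondrial ribosomal protein genes, 69 were hosts (93.2%, interval 85.1 to 97.1%), against 64.9% of like genes. MRPS16 and MRPL35, of the small and large mitochondrial subunit, had 4 peaks each, with strongest folds of 66.1 and 29.9. MRPS6 had no peak at 43.1 FPKM. With the peaks and Input labelled SW480, 51 of 76 members were hosts (67.1%). Of 83 cytosolic ribosomal protein genes, 72 were hosts (86.7%), against 74.7% of like genes. RPL13A, at 354 FPKM, had 5 peaks, and RPS16, at 165 FPKM, had none. Of 52 genes of translation initiation factors and their regulators, 44 were hosts (84.6% against 66.1%). EIF4A2, an RNA helicase of the cap-binding complex, had 9 peaks at 32.7 FPKM, and EIF3K none at 45.8 FPKM. Of 36 aminoacyl-tRNA synthetase genes, 28 were hosts (77.8%, interval 61.9 to 88.3%, against 65.3%), so the interval held the share of like genes. With the peaks and Input labelled SW480, 24 of 37 were hosts (64.9%). The most abundant synthetase genes without a DLD-1 peak, GARS and WARS, reached 170 and 96.0 FPKM. Elongation and release factor genes lay nearer to like genes, with 9 hosts among 14 (64.3%, interval 38.8 to 83.7%, against 58.5%).

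Genes that make ribosomes and process RNA also held many hosts. In ribosome biogenesis and snoRNP protein genes, 53 of 58 were hosts (91.4% against 65.0%), with 3.15 peaks per host. HEATR1, a factor of the small-subunit processome, had 11 peaks at 13.0 FPKM. NAT10 itself was a host at 16.6 FPKM. It had 6 peaks, 4 in the CDS and 2 in the 3'-UTR, and the strongest, with a fold of 113, lay in the 3'-UTR at chr11:34142245-34146313. Its adaptor THUMPD1 was at 3.51 FPKM with 2 peaks in the 3'-UTR and a strongest fold of 8.65. Of 55 splicing factor genes, 51 were hosts (92.7% against 70.2%), with a median strongest fold of 72.4. PRPF8, the core protein of the spliceosome, had 9 peaks at 69.4 FPKM and HNRNPA3 had 8 at 22.5 FPKM, whereas SRSF8 had none at 15.1 FPKM. HNRNPH3 had 4 peaks, the strongest with a fold of 190, and HNRNPA2B1 had 2, the strongest with a fold of 193. Of 50 DEAD and DEAH box helicase genes, 42 were hosts (84.0% against 61.4%), but DDX17 had no peak at 54.4 FPKM.

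Cell cycle genes formed a further group. Of 48 DNA replication genes, 44 were hosts (91.7%, interval 80.4 to 96.7%), against 55.0% of like genes, which was the widest gap of the lists above. TOP2A, the topoisomerase that untangles replicated DNA, had 7 peaks at 31.3 FPKM. MCM3, of the replicative helicase, had 2 peaks and a strongest fold of 829. The 4 members without a peak included ORC5 at 5.68 FPKM and RPA3 at 5.23 FPKM. Of 52 mitosis and cytokinesis genes, 45 were hosts (86.5% against 64.2%). CENPF, a kinetochore protein, had 12 peaks at 21.9 FPKM, of which 11 lay in the CDS. KIF23, the kinesin of the central spindle, was at 11.1 FPKM in Input under the label DLD-1 and 20.2 FPKM under SW480. It had 5 peaks, 4 of them in the CDS and 1, the strongest with a fold of 57.4, in the 3'-UTR at chr15:69448128-69448397. BIRC5, the mitotic survival protein survivin, had 4 peaks at 6.20 FPKM. Proteasome subunits (38 of 43 hosts, 88.4% against 66.8%), nuclear pore and karyopherin genes (40 of 48, 83.3% against 62.1%) and Mediator and TAF genes (41 of 53, 77.4% against 56.6%) lay above like genes too. Nuclear-encoded respiratory chain genes were hosts in 69 of 87 cases (79.3% against 61.0%). With the peaks and Input labelled SW480, 21 of 50 Mediator and TAF genes were hosts (42.0%). The shares of proteasome, nuclear pore and respiratory chain genes were then 86.4%, 72.3% and 81.2%. With DLD-1 peaks of a p-value under the median, 35.8% of Mediator and TAF genes were hosts, 7.12 points above all genes of the same bins.

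**Figure D2:**
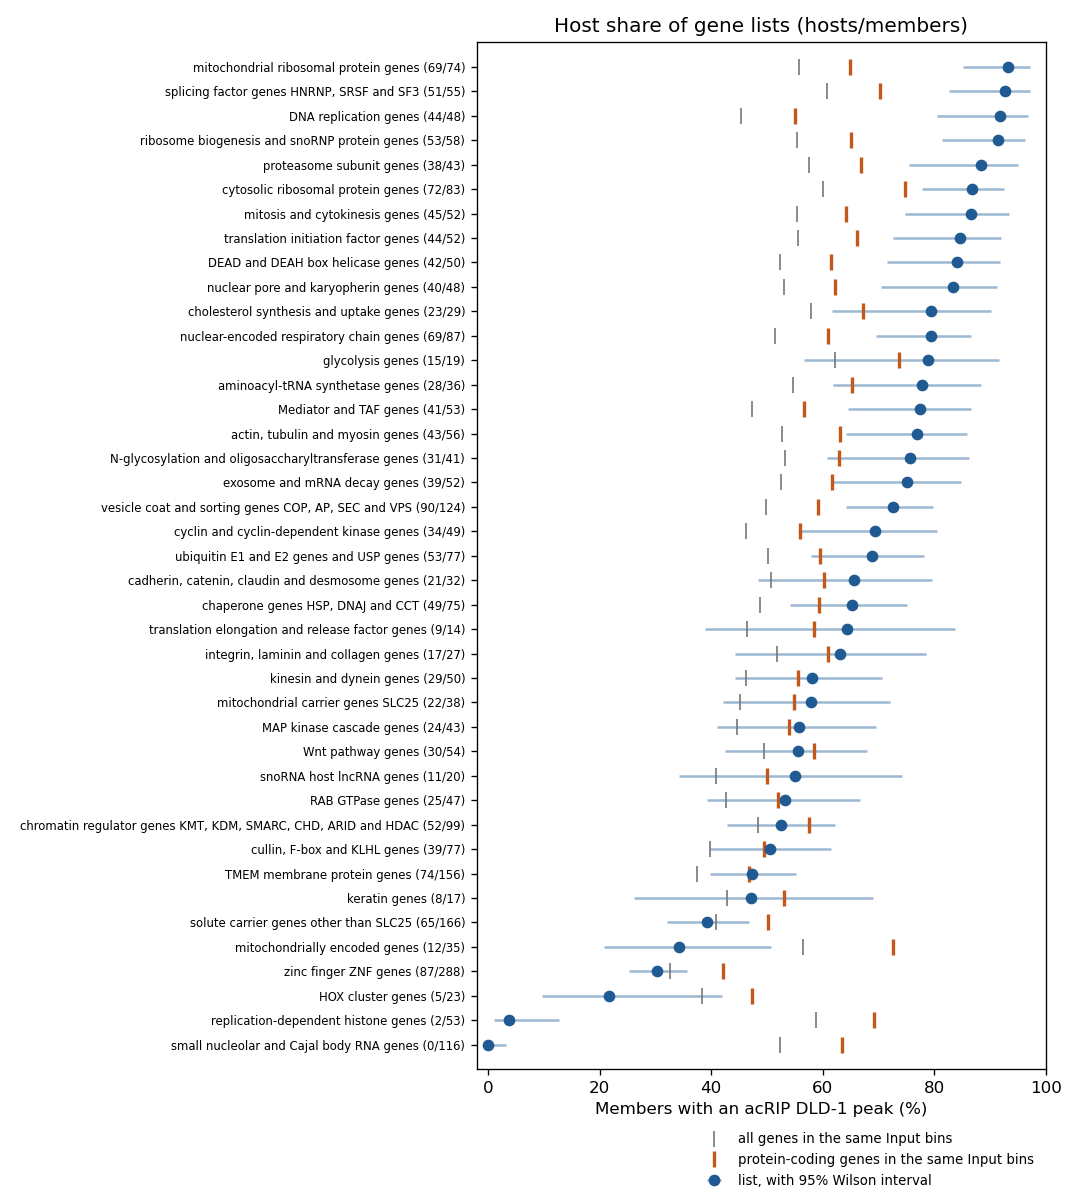
Each row is a gene list, with the share of its members that carried an acRIP DLD-1 peak (x axis, %) as a point with its 95% Wilson interval and, as ticks, the share of all genes and of protein-coding genes in the same Input bins. Mitochondrial ribosomal protein genes lie highest at 93.2%, and replication-dependent histones and small nucleolar RNAs lie lowest at 3.77% and 0.

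Replication-dependent histone and small nucleolar RNA genes were nearly free of peaks, and HOX, ZNF and solute carrier genes held fewer hosts than like genes. Replication-dependent histone genes, whose mRNAs are short, lack a poly(A) tail and have near-identical copies, held 2 hosts among 53 genes (3.77%, interval 1.04 to 12.8%), against 69.2% of like genes and 57.9% when length was matched as well. The hosts were HIST1H2BK, at 111 FPKM with a fold of 1.49, and HIST1H2AC, at 34.1 FPKM. The fold of HIST1H2AC was far higher, above the median of 21.2 for the strongest peak of all hosts. The solved transcript length of HIST1H2AC was 1668 bases, against a median of 549 bases in the list, and its peak lay in the 3'-UTR. HIST1H1C, a linker histone, had no peak at 228 FPKM. With the peaks and Input labelled SW480, 2 of 53 were hosts as well. Small nucleolar and Cajal body RNAs, which guide modification of other RNAs, held no host among 116 genes, although SNORD3A was at 1981 FPKM. Their median solved length of 132 bases lay near the shortest peak. HOX cluster genes, which pattern the body axis, held 5 hosts among 23 (21.7% against 47.3%). Each had 1 peak in the 3'-UTR, as in HOXB7 at 15.2 FPKM, and HOXB9 had none at 35.9 FPKM. Zinc finger ZNF genes held 87 hosts among 288, or 30.2%, against 42.1% of like genes and 32.6% of all genes of the same bins. The second of these gaps turned with Input of at least 5, where ZNF genes lay 2.26 points above, and with the pooled peak list, where they lay 0.684 points above. Solute carriers other than SLC25 held 65 among 166, or 39.2%, against 50.2% and 40.9%, and with the pooled peak list they lay 5.04 points above all genes of the same bins.

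Wnt pathway, MAP kinase, RAB and TMEM genes lay near like genes. Of 54 Wnt pathway genes, 30 were hosts (55.6% against 58.5%). CTNNB1, which encodes beta-catenin, had 6 peaks at 29.0 FPKM, 3 in the CDS and 3 in the 3'-UTR, with a strongest fold of 105. GSK3B, the kinase that marks beta-catenin for degradation, had 2 CDS peaks at 18.0 FPKM and a strongest fold of 12.6. Among the Wnt targets, CCND1 had 3 peaks in the 3'-UTR at 131 FPKM with a strongest fold of 11.6, and MYC had 1 with a fold of 5.11 at 72.1 FPKM. BCL9L, a coactivator of beta-catenin, had no peak at 56.9 FPKM, nor did the survival gene BCL2L1 at 91.4 FPKM. MAP kinase cascade genes (24 of 43 hosts, 55.8% against 53.9%), RAB GTPases (25 of 47, 53.2% against 52.0%) and TMEM genes (74 of 156, 47.4% against 46.8%) were as close.

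Most hosts had few peaks. Of the 6311 hosts, 2964 had 1 peak (47.0%), 1690 had 2, 856 had 3 and 437 had 4. At least 5 peaks were found in 364 hosts (5.77%), which held 2134 of the peaks (16.7%). The mean was 2.03 peaks per host. Hosts with more peaks were longer and more abundant, from a median solved length of 2992 bases and a median Input of 7.69 FPKM with 1 peak to 4484 bases and 12.6 FPKM with 5 peaks. Set by length, the host share varied less than by Input. The host share of protein-coding genes was 58.3% at 1000 to 2000 bases, 54.1% at 4000 to 6000 bases and 48.4% at 6000 bases and above, whereas the mean number of peaks per host went from 1.62 to 2.34 and 2.36. Below 1000 bases the share was 46.8%. Per kilobase of host there were 1.65 peaks below 1000 bases and 0.282 at 6000 bases and above.

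**Figure D3:**
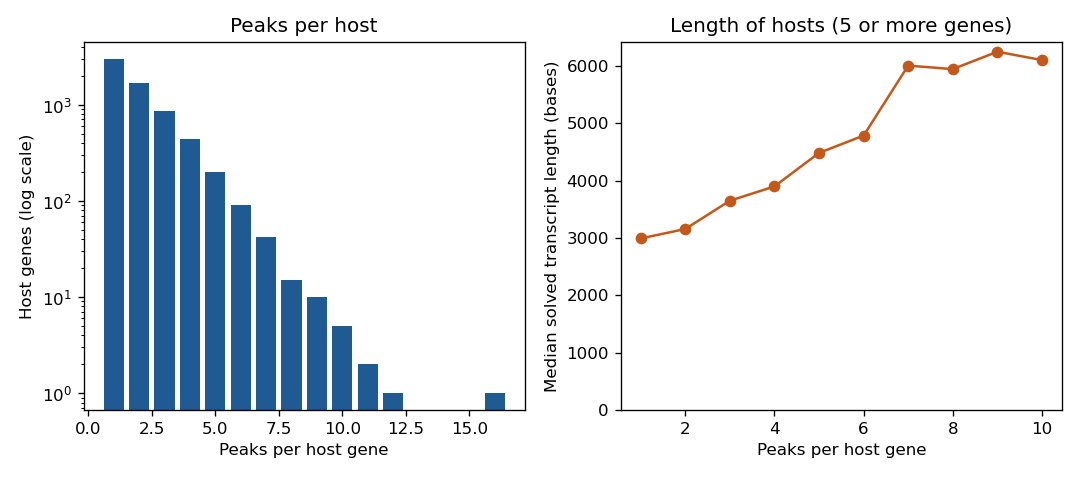
The left panel counts host genes (y axis, log scale) by their number of peaks (x axis), and the right panel gives the median solved transcript length (bases) of hosts with each number of peaks, where at least 5 genes had it. Hosts with 1 peak number 2964 with a median of 2992 bases, and hosts with 5 peaks number 198 with 4484 bases.

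PLEC, the cytolinker plectin, had the most peaks of any host, with 16 at 51.1 FPKM, 14 of them in the CDS. CENPF followed with 12, and HEATR1 and PRKDC, a DNA repair kinase, with 11 each. DIAPH1 (a formin), CYFIP1 (of the WAVE complex) and KIF3B (a kinesin) had 10 each. The peaks of DIAPH1 and CYFIP1 lay mainly in the CDS, with 7 in each, whereas KIF3B had 7 in the 3'-UTR. CCND2, a G1 cyclin, had 10 peaks, 8 of them in the 3'-UTR, at 10.7 FPKM in Input under the label DLD-1 and 0 under SW480. GPRC5A, a membrane receptor and 1 of 10 hosts with 9 peaks, was at 9.59 and 48.4 FPKM in the same order, so it was lower and CCND2 higher in the Input of the label DLD-1.

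The 3'-UTR and the CDS held most peaks. By the position that the authors annotate, 41.9% of host peaks lay in the 3'-UTR (interval 41.1 to 42.8%), 38.3% in the CDS, 18.2% in exons given no finer position and 1.52% in the 5'-UTR. With the other Input these shares were 41.8, 38.5, 18.1 and 1.45%. Among the peaks with lower p-values (below the median), the 3'-UTR and the CDS did not stand apart, with 39.0% and 39.1%. The CDS share was higher in hosts with more peaks, from 32.5% of the peaks of protein-coding hosts with 1 peak to 47.7% in those with at least 5, while the 3'-UTR share went from 47.7% to 41.1%. In protein-coding hosts with at least 2 peaks, the strongest peak lay in the 3'-UTR in 50.8% and in the CDS in 32.2%, whereas the other peaks lay there in 37.7% and 46.4%. Of these 3287 hosts, 1564 had peaks in both the 3'-UTR and the CDS and in no other position (47.6%).

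**Figure D4:**
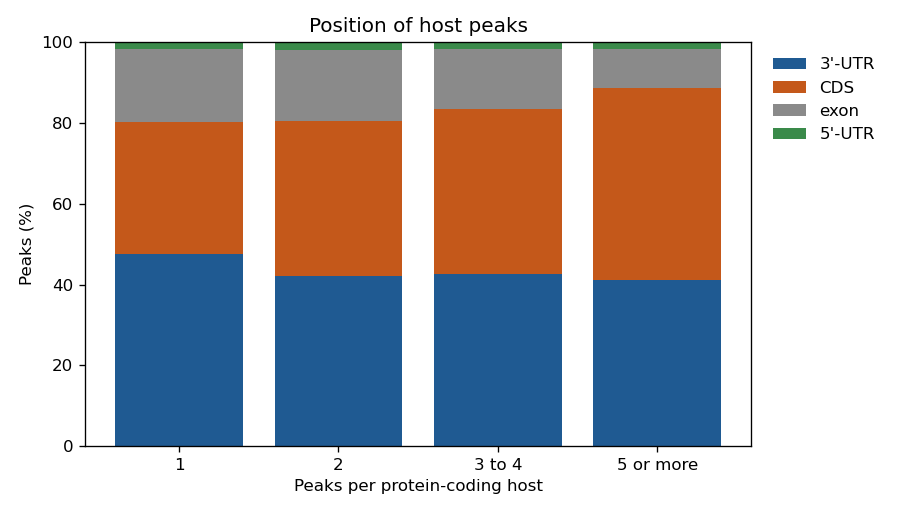
Stacked bars give the share of peaks (y axis, %) in the 3'-UTR, CDS, exons without finer position and 5'-UTR, for protein-coding hosts with 1, 2, 3 to 4 and 5 or more peaks (x axis). The CDS part is 32.5% in the first bar and 47.7% in the last.

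Families differed in where their peaks lay. RAB GTPases had 40 of 56 peaks in the 3'-UTR (71.4%) and MAP kinase cascade genes 37 of 54 (68.5%). NRAS, a small GTPase at the head of that cascade, had 8 peaks. In contrast, aminoacyl-tRNA synthetases had 44 of 68 peaks in the CDS (64.7%) and mitosis and cytokinesis genes 88 of 144 (61.1%). Cytosolic ribosomal protein genes had 13 of 137 peaks in the 3'-UTR (9.49%), and 83 were given only as exon (60.6%). The annotated position also moved with Input: the 3'-UTR held 44.7% of the peaks of hosts at 8 to 16 FPKM and 25.4% of those in the highest bin. The CDS share went from 39.5% to 34.3% between these bins. Exons without finer position went from 14.3% to 39.9%, so much of the change lay in peaks without a finer annotation.

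Peak strength and the motif differed by position. The fold is the authors' enrichment of acRIP over Input within a peak, and its median was 16.3 in the 3'-UTR, 12.6 in the CDS and 12.5 in the 5'-UTR. At least 1 listed motif site was found in 54.8% of host peaks (interval 53.9 to 55.6%, and 54.5% with the other Input) and in 4425 hosts (70.1%). The share was 48.8% in the 3'-UTR, 57.9% in the CDS and 66.5% of 194 peaks in the 5'-UTR, and the sites per kilobase were 3.56, 5.16 and 7.56. Peaks of at least the median fold held a site in 60.7% and weaker peaks in 48.8%, but they were also longer, with a median of 299 against 180 bases, and per kilobase they held 4.42 against 4.76 sites.

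Over all hosts, the median fold of the strongest peak was 16.5 at 1 to 2 FPKM, 23.0 at 8 to 16 FPKM, 30.1 at 32 to 64 FPKM and 21.5 in the highest bin. Of the hosts with the highest folds, several lay low in Input. S100A2, a calcium-binding protein of stratified epithelia, was at 1.36 FPKM and had 1 peak with a fold of 2010 at chr1:153561197-153563985, in the 3'-UTR. F3, which encodes tissue factor, was at 6.62 FPKM in Input under the label DLD-1 and 23.3 FPKM under SW480, with a fold of 1120. KRT7, a keratin of simple glandular epithelia, was at 2.82 FPKM with 4 peaks and a strongest fold of 881. THBS1, the matrix protein thrombospondin, was at 11.3 FPKM with 5 peaks, the strongest with a fold of 1330. BTF3, a factor that binds nascent protein chains, was more abundant, at 105 FPKM with a fold of 1390. The highest fold, 3060, lay on the antisense RNA gene AC019349.1 at 1.94 FPKM.

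**Figure D5:**
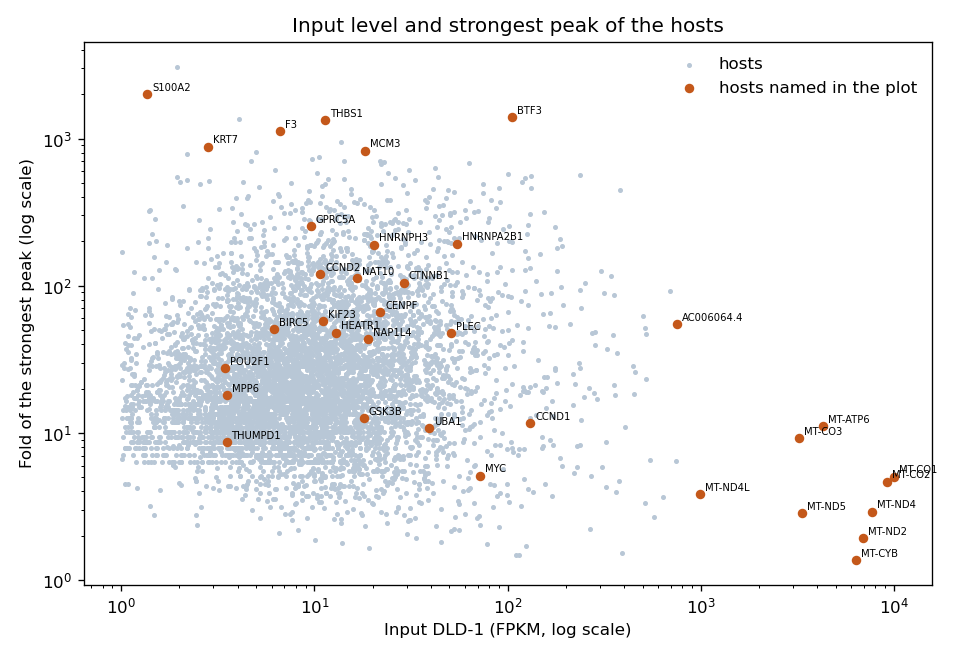
Each point is a host, by its Input DLD-1 (x axis, FPKM, log scale) and the fold of its strongest peak (y axis, log scale), with some of the named hosts in orange. The mitochondrially encoded hosts lie at the lower right, as MT-CO1 at 9973 FPKM with a fold of 5.05, and S100A2 at the upper left at 1.36 FPKM with a fold of 2010.

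Hosts in DLD-1 were mostly hosts in SW480 too. Of the 6311 hosts, 4417 also carried a peak in the list labelled SW480 (70.0%), and 4377 of the 5636 hosts with Input SW480 of at least 1 carried a peak in DLD-1 (77.7%). The share went from 59.8% of hosts with 1 peak to 89.0% of hosts with at least 5 peaks, which also had more RNA in Input. Among the 8814 genes without a DLD-1 peak, 1345 carried a peak in SW480 (15.3%).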

How the data were processed

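The authors deposited Input values per gene, read here as FPKM, which is scaled to gene length and library size. The unit of this table is not named. The 37 mitochondrial genes gave whole reads in every column, as values proportional to reads over length would. Because the library total was fitted, this cannot tell FPKM from another unit of that form. The submitters' processing notes name cutadapt 2.5 and HISAT2 2.1.0. The counting tool and peak caller are not given in the sources used here. The deposited peak list gives per peak a fold (ratio of acRIP over Input), a p-value and a score that is the log10 of the FDR, of which 328 were spreadsheet errors. Coordinates are GRCh38. The authors' own RIP/Input ratios were not used.

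Scaled library totals were solved from mitochondrial gene lengths (10817661 for the Input labelled DLD-1). Transcript lengths are the smallest whole numbers that fit the FPKM values of the RIP table, and were solved for 93.1% of genes. Input reads were solved with the smallest length that fits both Inputs, raised to a multiple about as long as the transcript length. The reads are lower limits only where the true length in the Input table is not shorter than that. The solving was tested on simulated data. Shares have 95% Wilson intervals.

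The planned gene-level ratio of acRIP to Input was not made, as no acRIP expression column was used here. Named genes were the 10 hosts with most peaks, highest fold or highest Input, the 10 abundant genes without a peak, 2 hosts and 2 non-hosts per list, and 15 by name, of which some are not reported here. Members and lists were chosen with earlier results of these data known. Alternatives changed the Input column or minimum, the peak list or the peaks admitted.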

Additional observations from a re-analysis of the deposited data

Results flagged for a closer look

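Peaks were also listed on genes outside the comparison, with Input below 1. There were 788 such genes with 1170 peaks, and 408 of them were listed at 0 in the Input labelled DLD-1. Of these, 314 were at 0 in both Inputs of that table, 348 were at 0 in the DLD-1 Input of the RIP table, and 240 carried a SW480 peak as well. They are 1.07% of the 38144 genes at 0.

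Epithelial and cancer-testis genes stood among them. In a list of 36 squamous and urothelial genes, chosen after the values were seen, 12 of the 24 with Input below 1 carried a DLD-1 peak, 7 of them at 0. KRT13, a keratin of stratified epithelia, was at 0.730 FPKM with a fold of 2950, and the transcription factor GATA3 at 0.0284 FPKM with a fold of 702. Of the 13 MAGE-A cancer-testis genes, a list also chosen after the values were seen, 4 carried a DLD-1 peak with Input below 1, all listed at 0. The folds were 1930 in MAGEA4, 278 in MAGEA12, 230 in MAGEA6 and 208 in MAGEA3, and these copies share sequence. The source of these peaks was not tested.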

How the results depend on the processing

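With 1 library per group, no replicate could be left out, and no paired analysis was possible because no group held a second library. The ratio of acRIP to Input per gene and its alternatives were not run. Most values moved by more than their counting interval with the genes or peaks admitted, and the 3'-UTR held more peaks than the CDS under each setting except the p-value choice. The host share was 33.2% with Input above 0, 57.5% with Input of at least 5, 53.5% in protein-coding genes, 39.8% with the Input of the RIP table, 43.8% with the Input of the other label and 45.4% with Input of at least 1 in both tables, an alternative added after seeing the data. It was 25.1% with peaks of a p-value under the median, 27.5% with peaks of a fold at or above the median and 47.6% with the pooled peak list. In the lowest Input bin it was 22.1% in protein-coding genes, 10.0% with the RIP-table Input, and 5.31%, 8.50% and 21.8% under the 3 peak choices in the same order. At 32 to 64 FPKM it was 79.6% in protein-coding genes, 62.5% by p-value and 50.9% by fold, and in the highest bin 75.6% in protein-coding genes, 64.5% with the RIP-table Input and 35.3% by fold. The median Input of hosts was 13.3 FPKM in the RIP table, 9.55 FPKM with the other label, and 12.2, 9.64 and 8.25 FPKM by p-value, fold and pooled list. For genes without a peak it was 4.11 FPKM in protein-coding genes, 3.92 FPKM in the RIP table, and 4.18 and 4.26 FPKM by p-value and fold. Hosts with at least 2 peaks were 57.2% with Input of at least 5, 55.1% in protein-coding genes, and 41.3%, 36.0% and 51.3% by p-value, fold and pooled list. The 3'-UTR share of peaks was 43.3% in protein-coding genes, 39.0%, 45.6% and 48.8% by p-value, fold and pooled list, and 46.8% with the strongest peak per host. The CDS share was 39.4% with Input of at least 5, 39.6% in protein-coding genes, 34.0% by fold, 31.0% in the pooled list and 30.6% with the strongest peak. Exons without finer position held 16.7% with Input of at least 5 and with the RIP-table Input, 15.4% in protein-coding genes, 20.4% by p-value, 19.0% by fold and 21.3% with the strongest peak. The 5'-UTR held 1.23% by fold and 1.16% with the strongest peak. A motif site was in 65.9%, 60.7% and 53.8% of peaks by p-value, fold and pooled list, and in 54.5% with the Input of the other label, added after seeing the data. Lists at least 10 points above genes of like Input numbered 19 in protein-coding genes, also with length matched, an alternative added after seeing the data. Of the 35 lists 10 points or more away, 33 had a value under all 9 settings, and 29 of these kept their side. The other lists, of small nucleolar and Cajal body RNAs and of snoRNA host lncRNAs, had no value among protein-coding genes and kept their side under the remaining 8. The exceptions were mitochondrially encoded genes among protein-coding genes, cholesterol and cullin genes by p-value, and MAP kinase genes by p-value and by fold. The cause was not tested.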
